A study of Mus musculus with 12 samples.

Results

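The pro-B cell identity genes are 9 genes that mark the earliest steps of the B lineage: *Tcf3*, *Ebf1*, *Pax5*, *Vpreb1*, *Igll1*, *Cd79a*, *Cd79b*, *Blnk* and *Rag1*. They were chosen by name, with earlier results of these data known, to describe what B-lineage identity Ba/F3 clones keep. All 9 were among the 41255 genes of the mRNA table, and 3 of the 9 were among the 10080 genes of the table of ribosome-protected fragments (RPF). Ba/F3 is a mouse lymphoid line that grows on interleukin-3. All 6 clones were monoclonal Ba/F3 lines with an shRNA against endogenous *Rpl10* and a retroviral human *RPL10* cDNA. Clones 11, 13 and 35 carried *RPL10 R98S* (n = 3) and clones 28, 29 and 36 carried *RPL10 WT* (n = 3). Each clone gave 1 RPF library and 1 mRNA library, and all cells were exposed to cycloheximide at 100 μg/ml for 5 min before lysis. Each line grew from 1 cell, so a genotype is represented by 3 clones and differences between clones are the only measure of error.

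In the bone marrow, B-lineage cells arise under a chain of transcription factors. E2A, the product of *Tcf3*, acts upstream of *Ebf1*, and EBF1 and PAX5 then switch on B-lineage genes and hold other fates off. Pro-B cells recombine the immunoglobulin heavy chain locus with the RAG recombinase. They place the new heavy chain on the surface with the surrogate light chain (VPREB1 and IGLL1) and the signalling chains CD79A and CD79B, and BLNK carries the signal onward inside the cell. E proteins are also used outside the B lineage, whereas the other members are largely B-lineage genes, or lymphoid genes in the case of *Rag1*.

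The deposited values were counts divided by the size factor of each library, called normalized counts here. Counted reads per mRNA library ran from 6617457 to 23136595 (median 21419112), the lowest being WT clone 28, and per RPF library from 3477723 to 10883086 (median 6223734). In the mRNA table, 3 reads, the upper limit that a count of 0 allows, were worth from 2.35 to 8.06 normalized counts depending on the library. These limits cover counting error only. Mouse *Rpl10* mRNA lay between 1449 and 2905 normalized counts in R98S clones and between 2230.3 and 4501 in WT clones. It is no check of the knock-down, because reads of the human transgene may count toward it.

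Of the 9 members, 3 were expressed in all 6 clones and 6 were silent or nearly so. The expressed ones were *Tcf3* and the 2 signalling chain genes *Cd79a* and *Cd79b*. Over all 6 mRNA libraries, with 115347166 counted reads, the other 6 members had 12 reads together and never more than 3 in 1 library. The label of a lymphoid line was also compared with 11 pro-B markers, which are 8 of the members besides *Rag2*, *Dntt* and *Il7r*. Of these markers, *Cd79a* and *Cd79b* reached a mean of 10 normalized counts. The remaining 9 had 19 reads in all, and 3 of them, *Pax5*, *Rag1* and *Il7r*, had none. Most genes that define a pro-B cell were thus not detectable in these clones at this depth, and the name of the gene group describes the genes and not the cells.

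**Figure D1:**
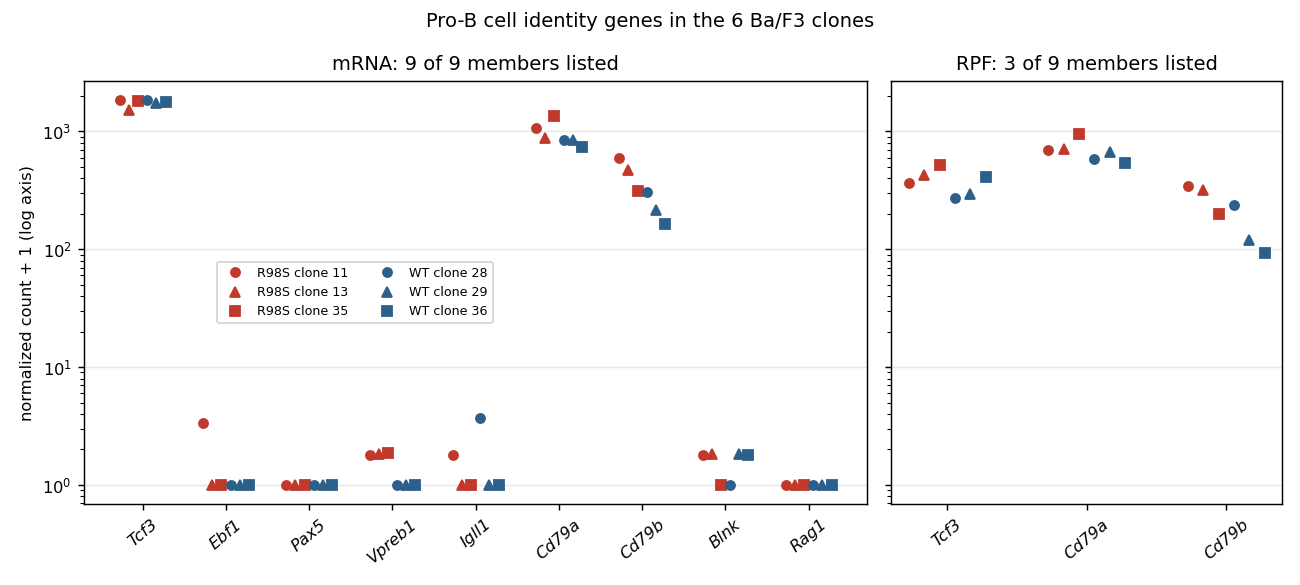
Normalized counts plus 1 (log axis) of the members in the mRNA libraries (left, 9 genes) and the RPF libraries (right, the 3 listed genes), with 1 point for each clone, red for R98S and blue for WT. *Tcf3*, *Cd79a* and *Cd79b* lie above 100 normalized counts in every mRNA library, from 163 upwards, while the other 6 genes lie at or below 2.69.

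The silence of most members was set beside the letters of their promoters, since E proteins bind E-box sequences and *Tcf3* was expressed. Promoter sequences from RefSeq (build GRCm38.p6) were found for 8 of the 9 members, with 2 start sites for *Ebf1*. *Cd79b* had no entry. The 250 bases before each start were searched on both strands. The E-box CAGGTG was present in the promoters of *Cd79a*, *Vpreb1*, *Igll1*, *Blnk* and *Rag1*, compared with 17.2% of all 32851 promoters. The windows below hold that E-box in capitals (CAGGTG, or CACCTG where it lies on the other strand) with up to 27 bases on each side, and are shown because the same letters stand upstream of the RefSeq start of a gene that was expressed and of 4 that were not. None of them overlaps an annotated exon.

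*Cd79a*, expressed, chr7:24897316-24897375, plus strand: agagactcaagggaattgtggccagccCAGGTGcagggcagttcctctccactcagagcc
*Vpreb1*, silent, chr16:16869311-16869370, minus strand: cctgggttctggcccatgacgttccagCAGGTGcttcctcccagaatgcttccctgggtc
*Igll1*, silent, chr16:16863986-16864020, minus strand: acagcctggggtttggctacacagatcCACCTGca
*Blnk*, silent, chr19:40994349-40994408, minus strand: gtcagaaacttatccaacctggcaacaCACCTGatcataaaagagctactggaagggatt
*Rag1*, silent, chr2:101649635-101649694, minus strand: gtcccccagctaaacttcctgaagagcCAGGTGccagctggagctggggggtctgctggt

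The box begins 154 bases before the RefSeq start of *Cd79a*, 88 before *Vpreb1*, 8 before *Igll1*, 160 before *Blnk* and 135 before *Rag1*. RefSeq and GENCODE place some starts differently, so these distances do not follow from the GENCODE spans given with each gene, and by GENCODE the windows of *Vpreb1* and *Blnk* lie inside the gene, outside its exons. A second E-box, CAGCTG, was found in 13.0% of all promoters and, among the members, before *Rag1* and *Igll1*. The EBF core, TCCC and GGGA with any 2 bases between them, was found in 0.779% of all promoters and in none of the members'. The ETS core AGGAAG occurred in 29.5% of promoters and in those of *Rag1*, *Cd79a*, *Vpreb1* and *Blnk*; its longer form GAGGAAG occurred in 10.6% and, among the members, before *Vpreb1*. These matches describe letters in the reference genome, and no binding was measured.

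Among the transcription factors, *Tcf3* (GRCm38, chr10:80409514-80433647, minus strand) was expressed at nearly the same mRNA level in every clone. Gene counts do not separate its E12 and E47 protein forms. R98S clones 11, 13 and 35 had 1835, 1512 and 1814 normalized counts of its mRNA, against 1837, 1732 and 1762 for WT clones 28, 29 and 36. R98S clone 13 was the lowest, and the genotypes overlapped. The log2 difference in R98S versus WT was -0.05 (SE 0.16, 95% confidence interval from -0.41 to 0.31, adjusted p = 0.909, limma). *Tcf3* RPF came to 364, 424 and 517 normalized counts in the R98S clones, against 271, 294 and 407 for the WT clones. The genotypes again overlapped, with WT clone 36 above R98S clone 11. The RPF difference was 0.43 on the log2 scale (SE 0.22, adjusted p = 0.299, limma). With estimated library weights it was 0.20 (adjusted p = 0.555).

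*Ebf1* and *Pax5*, the factors that specify and commit the B lineage, had no expression above the detection limit. *Ebf1* (chr11:44617317-45008091, plus strand) had 3 reads in R98S clone 11 and 0 in the other 5 mRNA libraries. *Pax5* (chr4:44524757-44710487, minus strand) had 0 reads in all 6. Neither gene was listed in the RPF table. All 10080 genes listed there had reads in all 6 RPF libraries, so a gene that is not listed may still have had some footprints. E2A mRNA was thus present in these clones without detectable mRNA of the 2 factors that follow it in B-cell development.

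The surrogate light chain genes lie next to each other on chromosome 16 and were both silent. *Vpreb1* (chr16:16868403-16870843, minus strand), which overlaps *Top3b* on the opposite strand, had 1 read in each R98S clone and 0 in each WT clone, which is within the limit that a count of 0 allows. *Igll1* (chr16:16860671-16863985, minus strand) had 1 read in R98S clone 11 and 1 in WT clone 28. Reads that fit both *Vpreb1* and its near-identical copy *Vpreb2* may have been removed from both by the mapping quality filter. The 0 reads of *Vpreb2* in every mRNA library therefore do not show whether *Vpreb1* reads were lost. No fold change is given for these genes, and neither was listed for RPF.

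*Cd79a* (chr7:24897381-24902197, plus strand), which encodes the Igα chain of the receptor complex, was expressed in every clone. R98S clones 11, 13 and 35 had 1072, 878 and 1357 normalized counts of mRNA, and WT clones 28, 29 and 36 had 849, 851 and 730.4. Each R98S clone lay above each WT clone, by a small margin for clone 13. The mean was 1102 ± 241 (SD, n = 3) in R98S and 810.0 ± 69.0 (SD, n = 3) in WT. The log2 difference of 0.42 (SE 0.20, 95% confidence interval from -0.03 to 0.88) did not pass the test (adjusted p = 0.312, limma).

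For *Cd79a* RPF, the R98S clones had 691, 715 and 954 normalized counts and the WT clones 585, 664 and 543, again without overlap. The difference was 0.39 on the log2 scale (SE 0.19, adjusted p = 0.286, limma). Genes on chromosome 7 were shifted as a group: their median in R98S minus WT was 0.18 on the log2 scale for mRNA and 0.20 for RPF. After the median of each chromosome was removed from each library, the *Cd79a* difference was 0.25 for mRNA and 0.19 for RPF. Without R98S clone 35, the highest, it was 0.26 and 0.24. With estimated library weights the mRNA difference was 0.48 and passed the threshold (adjusted p = 0.0618).

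*Cd79b* (chr11:106311341-106314762, minus strand), which encodes the Igβ partner chain, differed most between the genotypes among the members. The mRNA counts were 589, 472 and 313 for R98S clones 11, 13 and 35, and 303, 216 and 163 for WT clones 28, 29 and 36, after normalization. These values rest on 113 reads in WT clone 28 and on 208 to 742 reads in the other libraries. All R98S clones lay above all WT clones, but clone 35 and WT clone 28 were nearly equal. The mean was 458 ± 139 (SD, n = 3) in R98S and 228 ± 70.9 (SD, n = 3) in WT. The log2 difference was 1.00 (SE 0.31, 95% confidence interval from 0.32 to 1.69), a 2.01-fold ratio, with an adjusted p of 0.112 in limma, above the threshold of 0.1.

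*Cd79b* RPF followed the same order of clones within each genotype, at 340.4, 316 and 196 normalized counts in R98S and 238, 118 and 92.2 in WT. Here the genotypes overlapped, since R98S clone 35 lay below WT clone 28. The log2 difference was 1.01 (SE 0.34, 95% confidence interval from 0.25 to 1.76, adjusted p = 0.132, limma). The side of the threshold depended on the tool and on 1 library. DESeq2 on the recovered reads called *Cd79b* in mRNA (adjusted p = 0.0252) and in RPF (0.0685), and edgeR did not (0.107 and 0.143). Without R98S clone 35 the differences were 1.25 for mRNA and 1.25 for RPF, and both passed (adjusted p = 0.0694 and 0.0670, limma). Without WT clone 28 they were 1.23 and 1.40, and both passed (adjusted p = 0.0492 and 0.0462, limma). Neither gene of the pair passed in either assay as reported here.

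**Figure D2:**
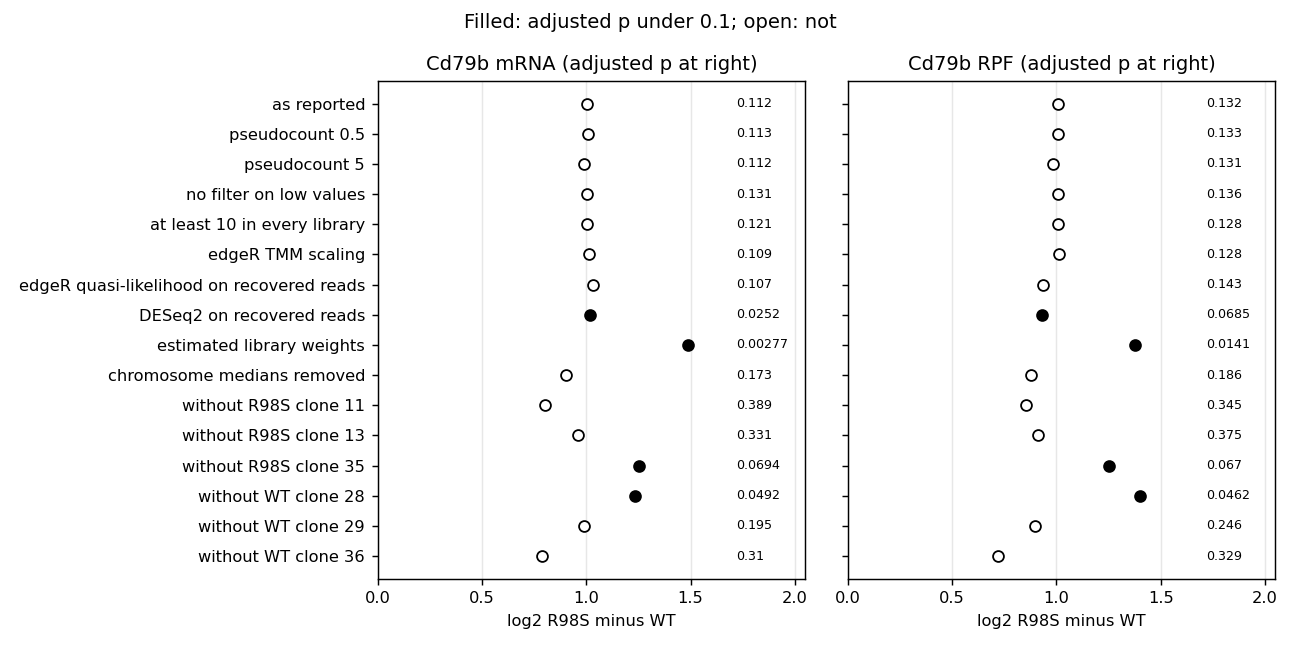
Log2 difference of *Cd79b* in R98S versus WT for mRNA (left) and RPF (right) as reported and under each other setting, with the adjusted p beside each point and filled points for an adjusted p under 0.1. All points lie above 0, from 0.79 to 1.49 for mRNA and from 0.72 to 1.40 for RPF, and 4 settings of each assay pass the threshold.

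The partner chains are needed together in the receptor, and their mRNA levels were compared per kb of exon. *Cd79a* had a mean of 656 normalized counts per kb, above 93.2% of the 19939 genes with a length and any reads, and *Cd79b* had 239, above 81.3%. *Tcf3* lay between them, with 433 per kb. The ratio of *Cd79a* to *Cd79b* mRNA per kb was 1.79, 1.83 and 4.26 in R98S clones 11, 13 and 35 and 2.75, 3.87 and 4.40 in WT clones 28, 29 and 36. Clone 35 had a ratio within the WT range, and the genotypes overlapped (two-sided exact permutation p = 0.3, n = 3 and 3; the smallest p this design allows is 0.1). For RPF per kb of counted coding sequence, the ratio was 2.72, 3.03 and 6.51 in R98S and 3.29, 7.57 and 7.89 in WT (exact permutation p = 0.2).

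*Blnk* and *Rag1*, which act in pre-B cell receptor signalling and in recombination, were silent as well. *Blnk* (chr19:40928927-40994535, minus strand) had 1 read in each of R98S clones 11 and 13 and WT clones 29 and 36, and 0 in the other 2 libraries. *Rag1* (chr2:101638282-101649501, minus strand) had 0 reads in all 6. Neither was listed for RPF.

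In limma, 0 of the 3 members tested passed in mRNA, in RPF or in TE. At an unadjusted p under 0.05, *Cd79b* was the 1 member counted in mRNA and in RPF, and 0 were counted in TE; of all genes tested, 17.9% were under that p in mRNA, 20.3% in RPF and 7.85% in TE. DESeq2 called 1, 1 and 0 members, beside 11.3%, 11.4% and 0.0664% of all genes it tested. With edgeR 0 were called in mRNA and 0 in RPF, beside 7.10% and 8.43% of all genes. Over all genes tested in limma, 6.94% of 11344 passed in mRNA, 3.03% as higher in R98S and 3.91% as lower. In RPF 7.76% of 9580 passed, 3.13% as higher and 4.62% as lower. Groups without overlap and higher in R98S, as for *Cd79a* and *Cd79b* mRNA and *Cd79a* RPF, were found for 11.9% of all genes tested in mRNA and 12.5% in RPF.

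**Figure D3:**
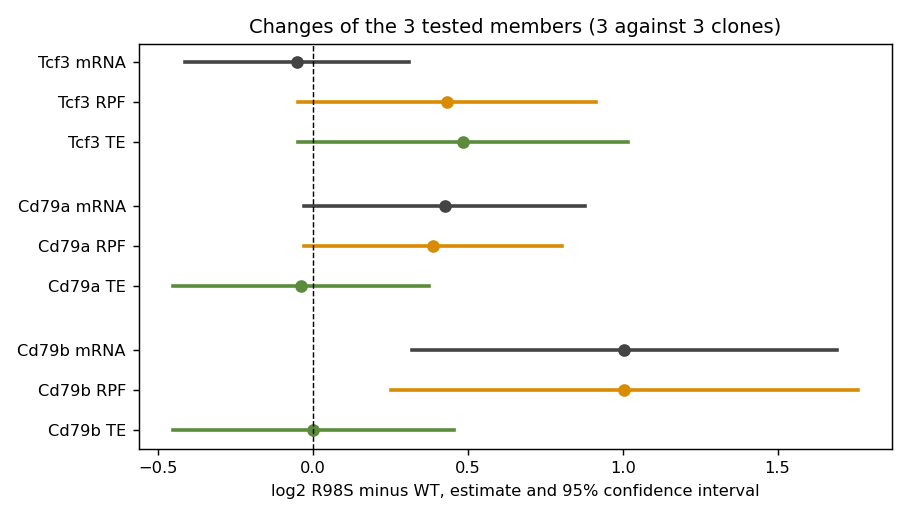
Log2 difference in R98S versus WT with its 95% confidence interval (limma, 3 against 3 clones) for mRNA, RPF and TE of *Tcf3*, *Cd79a* and *Cd79b*. The intervals of *Cd79b* mRNA (0.32 to 1.69) and RPF (0.25 to 1.76) lie above 0 before adjustment, and the other 7 include 0.

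Translation efficiency (TE), the log2 ratio of RPF to mRNA in the same clone, was then compared for the 3 expressed members. The tables were normalized separately, so TE is used between clones or between genes of 1 clone. TE of *Cd79b* was -0.79, -0.58 and -0.67 in R98S clones 11, 13 and 35 and -0.35, -0.87 and -0.81 in WT clones 28, 29 and 36. The R98S clones lay within the WT range, and the difference was 0.0004 on the log2 scale (SE 0.20, 95% confidence interval from -0.45 to 0.45, adjusted p = 1.0, limma). TE of *Cd79a* was between -0.63 and -0.30 in R98S and between -0.54 and -0.36 in WT, a difference of -0.04 (SE 0.19, 95% confidence interval from -0.45 to 0.38, adjusted p = 0.964, limma). For *Tcf3*, TE was -2.33, -1.83 and -1.81 in the R98S clones and -2.75, -2.56 and -2.11 in the WT clones, with an overlap of clone 11 and WT clone 36. The difference was 0.48 (SE 0.24, 95% confidence interval from -0.05 to 1.02, adjusted p = 0.635, limma). Over all 9043 genes tested for TE, 0.0221% passed, and 7.45% had every R98S clone above every WT clone.

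The 3 members held different places in the range of TE. Ranked per length within each clone among 8770 genes, *Tcf3* had a TE above 5.59% to 19.5% of genes, *Cd79b* above 49.0% to 63.3% and *Cd79a* above 71.4% to 82.4%. This order was found in all 6 clones. It rests on lengths from the annotation, and counted coding sequence leaves out the ends of each frame.

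Which other B-lineage genes the clones expressed was read from 5 lists with 65 genes besides the members. Levels per kb given for list genes are means over the 6 clones unless a genotype is named, and the order of genes can differ between genotypes. In mRNA, 34 of the 65 were tested, 30 had a mean under 10 normalized counts and 1, *Iglc1*, was not listed. Of the 34, 2 rose and 3 fell in R98S (14.7%, against 6.94% of all genes), and their median log2 difference was -0.11, beside 0.01 for all genes tested. In RPF 31 were tested, of which 2 rose and 5 fell (22.6%, against 7.76%), with a median of -0.26 beside 0.01. These lists were chosen with results of these data known. DESeq2 called 10 of the 34 in mRNA, beside 11.3% of all genes. Without R98S clone 13 the mRNA count was 1, without WT clone 36 or R98S clone 11 it was 2, and without WT clone 28 it was 8. The RPF count was 2 without R98S clone 11 or 13 or WT clone 28, 3 without WT clone 36 and 4 with chromosome medians removed.

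**Figure D4:**
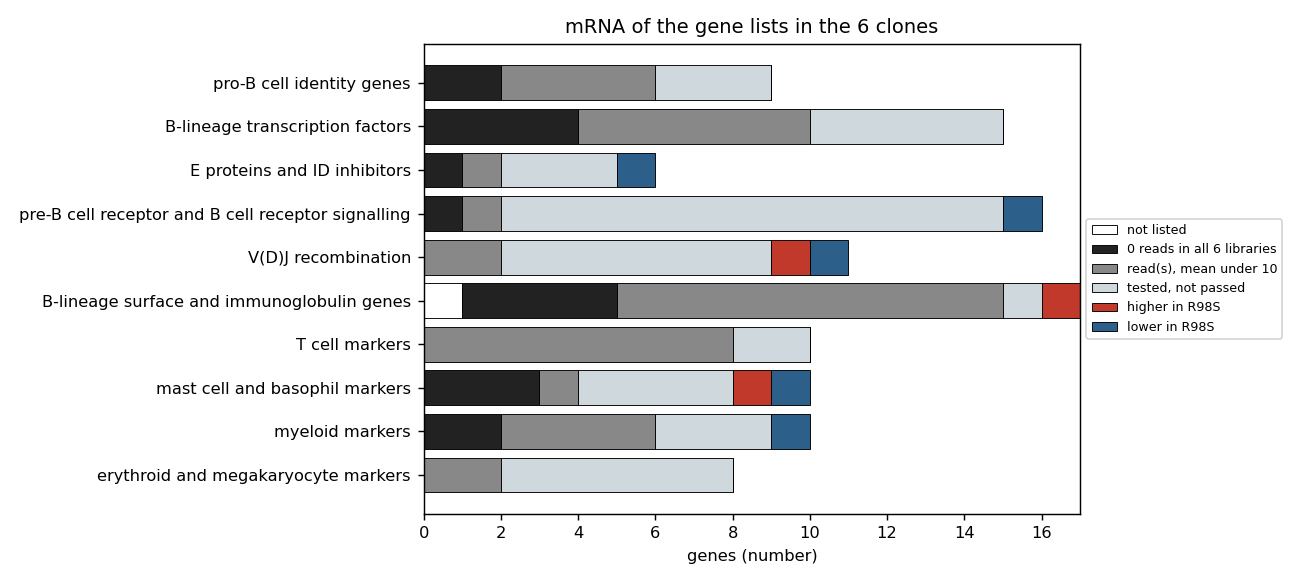
Number of genes (horizontal axis) in each gene list by what the 6 mRNA libraries hold: not listed, 0 reads in all, some reads with a mean under 10 normalized counts, tested and not passed, higher in R98S (red) or lower (blue). Of the 17 B-lineage surface and immunoglobulin genes 2 were tested, against 14 of the 16 receptor signalling genes.

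The B-lineage transcription factors other than the members were mostly silent. Of 15 genes, 5 were tested, and 0 passed in mRNA or RPF (limma; at an unadjusted p under 0.05, 2 in mRNA and 0 in RPF, beside 17.9% and 20.3% of all genes). *Ikzf3*, *Foxo1*, *Bcl11a* and *Pou2af1* had 0 reads in all mRNA libraries. The highest per length were *Spi1*, which encodes the myeloid and B-cell factor PU.1, with 390.1 normalized counts per kb, and *Myb*, a factor of blood progenitors, with 339.9 per kb. *Spi1* mRNA was between 799 and 1134 normalized counts in R98S and between 1102 and 1167 in WT (log2 difference -0.22, SE 0.18, adjusted p = 0.591, limma). For *Myb* mRNA, R98S clones 11, 13 and 35 had 4958, 4653 and 2218 normalized counts, against 2151, 2111 and 2131 in the WT clones. Clones 11 and 13 stood well above the WT clones and clone 35 barely so (0.80, SE 0.28, adjusted p = 0.163, limma).

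Among the partners and inhibitors of E2A, *Id1* was much lower in R98S. It encodes an inhibitor that pairs with E proteins and keeps them from binding DNA. R98S clones 11, 13 and 35 had 175, 235 and 981 normalized counts of *Id1* mRNA, whereas WT clones 28, 29 and 36 had 5137, 3108 and 3575. All R98S clones were far below all WT clones, with clone 35 in between. The log2 difference was -3.48 (SE 0.54, adjusted p = 0.00736, limma) in mRNA and -3.50 (SE 0.54, adjusted p = 0.00883) in RPF. It passed in every setting tried.

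The ratio of *Id1* to *Tcf3* mRNA per kb was 0.331, 0.541 and 1.88 in the R98S clones and 9.74, 6.25 and 7.07 in the WT clones. The genotypes did not overlap (exact permutation p = 0.1, the smallest possible). *Tcf3* mRNA was nearly level over the clones, so this ratio restates the *Id1* difference and is no separate test. *Id4* had 0 reads in all mRNA libraries. *Tcf12*, which encodes the E protein HEB, had the highest level per kb after *Id1* in the mean of all 6 clones (303.0). In the mean of the WT clones alone *Id2*, another inhibitor, lay above it (406 against 312 per kb), though not in WT clone 29. *Tcf12* mRNA overlapped between genotypes, with a log2 difference of -0.05 (SE 0.24, adjusted p = 0.938, limma). *Tcf4*, the third E protein gene, had RPF of 205, 167 and 205 normalized counts in R98S and 350, 309 and 356 in WT, and fell by 0.82 (SE 0.19, adjusted p = 0.0412, limma). Its mRNA difference was -0.64 (SE 0.21, adjusted p = 0.135). The *Tcf4* RPF call was lost without R98S clone 11 or 13 or WT clone 28 or 36 (adjusted p up to 0.180).

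Genes of pre-B and B cell receptor signalling were largely expressed, although the surrogate light chain and *Igkc*, a light chain constant region, were not. Of 16 genes 14 were tested, of which 0 rose and 1 fell in mRNA, and 0 rose and 2 fell in RPF. The shares of all genes tested that passed were 6.94% in mRNA and 7.76% in RPF. *Dapp1*, an adaptor downstream of phosphoinositide 3-kinase, had 1360.0 normalized counts of mRNA per kb, and *Btk*, a kinase required for B-cell development, had 1298. *Btk* mRNA was between 4059 and 4447 normalized counts in R98S and between 3443 and 4948 in WT (log2 difference 0.12, SE 0.18, adjusted p = 0.792, limma). *Blk*, a kinase of the B lineage, had 0 reads.

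*Bank1*, a B-cell scaffold protein, was lower in R98S in both assays. The R98S clones had 809, 694 and 593 normalized counts of its mRNA and the WT clones 1071, 1344 and 1556, without overlap (-0.92, SE 0.21, adjusted p = 0.0396, limma). Its RPF was at 242, 182 and 193 in R98S and 588, 434 and 402 in WT (-1.19, SE 0.21, adjusted p = 0.0143, limma). The mRNA call was lost without R98S clone 13 or WT clone 36 (adjusted p up to 0.156), and the RPF call held in every setting. *Plcg2*, a phospholipase activated through BLNK, fell in RPF by 0.72 on the log2 scale (SE 0.22, adjusted p = 0.0985, limma). Its mRNA overlapped between genotypes (-0.26, SE 0.24, adjusted p = 0.617), and its RPF call was lost when any clone other than R98S clone 35 was left out (adjusted p up to 0.315) or when chromosome medians were removed.

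Among V(D)J recombination genes, the lymphoid-specific parts were silent and the general repair factors were expressed. Besides *Rag1*, *Rag2* had 6 reads and *Dntt* 1 read over all mRNA libraries. Of the 11 genes of the list 9 were tested in mRNA and 8 in RPF, and 1 rose and 1 fell in each assay. Of all genes tested, 6.94% passed in mRNA and 7.76% in RPF. *Xrcc5*, which encodes the Ku80 subunit of the end-joining machinery, had mRNA of 583, 579 and 503 normalized counts in R98S and 215, 263 and 322 in WT. All R98S clones lay above all WT clones (1.07, SE 0.22, adjusted p = 0.0270, limma). Its RPF rose by 0.78 (SE 0.21, adjusted p = 0.0625). Without R98S clone 11 or 13 neither call held, and the RPF call was also lost without WT clone 28 or 36.

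*Hmgb2*, a chromatin protein that assists the RAG recombinase, had the highest mRNA level per kb of the list (4110 normalized counts per kb), followed by *Hmgb1* (1500.1). In mRNA, R98S clones had 7882, 9448 and 10148 normalized counts of *Hmgb2*, against 19246, 14449 and 12876 in WT (-0.75, SE 0.20, adjusted p = 0.0762, limma), and its RPF fell by 0.61 (SE 0.19, adjusted p = 0.0993). Leaving out a clone lost the mRNA call in 5 of 6 cases, all but WT clone 28, and the RPF call in all 6 (adjusted p up to 0.306 and 0.302). Removing chromosome medians also ended the *Hmgb2* calls and that of *Xrcc5* RPF, and edgeR did not call *Hmgb2* RPF. *Hmgb1* mRNA overlapped between genotypes (-0.32, SE 0.20, adjusted p = 0.439).

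Of the 17 B-lineage surface and immunoglobulin genes, 2 were expressed at a mean of 10 or more. *Bst1*, *Il7r*, *Vpreb2* and *Igkc* had 0 reads. *Cd72*, a co-receptor that restrains B cell receptor signals, had mRNA of 399, 375 and 473 normalized counts in the R98S clones and 134, 252 and 139 in the WT clones. It rose by 1.30 on the log2 scale (SE 0.28, adjusted p = 0.0349, limma) in mRNA and by 1.19 (SE 0.29, adjusted p = 0.0468) in RPF. Both calls were lost without R98S clone 11 or 13 or WT clone 36 (adjusted p up to 0.134 and 0.146), and the RPF call also without WT clone 28. *Cd37*, a tetraspanin of blood cells, had 389.98 normalized counts per kb of mRNA and a difference of 0.17 (SE 0.17, adjusted p = 0.656, limma).

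Markers of other blood lineages were measured in the same libraries. In bulk libraries, fewer cells of a type and less RNA per cell cannot be told apart. The summed mRNA of 10 T cell markers was between 143 and 152 normalized counts in R98S and between 62 and 78 in WT. *Cd4* and *Cd8a* had at most 2 reads in a library, while *Cd3d* and *Lck* led the list with 20.5 and 18.7 normalized counts per kb. *Cd3d* RPF rose by 2.33 on the log2 scale (SE 0.42, adjusted p = 0.0143, limma), and its mRNA difference of 2.60 (SE 0.77) did not pass (adjusted p = 0.105). For 10 myeloid markers the sum was between 59 and 142 in R98S and between 270 and 1198 in WT. *Csf3r* and *Ly6c2* were at 0, *Cd14* was at 429.7 normalized counts in WT clone 28 and at most 4.91 elsewhere, and *Prtn3*, a granule protease and the highest per kb, fell by 2.07 (SE 0.41, adjusted p = 0.0241) in mRNA and by 2.16 (SE 0.32, adjusted p = 0.00648) in RPF.

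The highest sums outside the B lineage were those of mast cell and basophil markers, between 17671 and 29452 normalized counts in R98S and between 22621 and 27982 in WT. *Gata2* mRNA alone had between 11145 and 15300 normalized counts in R98S and between 20183 and 26448 in WT. The sums of the marker lists and of the members are not scaled for gene length or list size. *Cma1*, a mast cell chymase, and *Gata2*, a factor of progenitors and mast cells, led the list over the 6 clones, whereas *Kit*, *Prss34* and *Tpsb2* were at 0. *Cma1* mRNA averaged 8464 normalized counts per kb in R98S and 1858 in WT, and *Gata2* 2565 and 4226. The order of these means differed between the genotypes, but it did not hold in each clone. On the same scale *Gata2* lay above *Cma1* in R98S clone 13 and slightly below it in WT clone 29. Single clones ranged widely for *Cma1*: R98S clones 11, 13 and 35 had 13501, 1943 and 12235 normalized counts, and WT clones 28, 29 and 36 had 1324, 4111 and 640.2. The genotypes overlapped, and the log2 difference of 2.17 (SE 0.79) did not pass (adjusted p = 0.176, limma). *Gata2* mRNA fell by 0.73 (SE 0.20, adjusted p = 0.0805, limma), a call lost without any 1 clone other than WT clone 29 (adjusted p up to 0.198) and with chromosome medians removed. Its RPF overlapped between genotypes, with a difference of -0.37 (SE 0.23, adjusted p = 0.402, limma). *Cpa3*, a mast cell carboxypeptidase, rose by 3.28 (SE 0.78, adjusted p = 0.0506) in mRNA and by 2.41 (SE 0.44, adjusted p = 0.0154) in RPF. Its mRNA call was lost without R98S clone 11 or 35 or WT clone 36 (adjusted p up to 0.161).

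Erythroid and megakaryocyte markers summed to between 9554 and 10918 in R98S and between 12118 and 13110 in WT, led by *Itga2b* (1671 per kb) and *Gata1* (718 per kb), and *Gp9* RPF fell by 1.01 (SE 0.28, adjusted p = 0.0735, limma). The *Gp9* mRNA difference was -1.02 (SE 0.31, adjusted p = 0.116). The RPF call was lost without R98S clone 11 or 13 or WT clone 28 or 36 (adjusted p up to 0.230). For comparison, the 9 members summed to between 2863 and 3501 in R98S and between 2656 and 2992 in WT. The T cell, myeloid and erythroid sums did not overlap between genotypes. Neither did the mRNA sums of the E protein, receptor signalling, V(D)J recombination and B-lineage surface lists, so such a separation was not particular to other lineages. Sums of the mast cell list, of the B-lineage transcription factors and of the members overlapped. The part of the other lineages in the members' values was not tested.

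The genes whose mRNA pattern over the 6 libraries was most like that of each expressed member were found by Pearson's r of log2 values among all genes tested. With 6 libraries, r describes a shared order of clones. For *Cd79b* they were *Zkscan14* (r = 0.998) and *Zfp647* (r = 0.997), with 65 genes above 0.95. R98S clones 11, 13 and 35 had 456, 365 and 268 normalized counts of *Zkscan14* mRNA, and WT clones 28, 29 and 36 had 266, 201 and 150.5, the same order as for *Cd79b*. For *Cd79a* they were *Apba3* (r = 0.994) and *Tmem55a* (r = 0.992), and for *Tcf3* *Sfn* (r = 0.988) and *Pgrmc1* (r = 0.981).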

How the data were processed

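The authors trimmed adapters, removed rRNA and tRNA reads with Bowtie2, aligned to mm10 with TopHat 2.0.11 and kept primary alignments of mapping quality at least 10. RPF reads were counted in coding sequences without the first 15 and last 5 codons, with 3 technical replicates merged per library, and mRNA reads over exons. Whether counting used strand is not given in the sources used here. The deposited signal values are counts divided by DESeq2 size factors, computed within each table, and whole reads were recovered for 100% of values (relative tolerance 1e-06). Precision is limited by counting error for low genes and by 3 clones per genotype.

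Here, log2(value + 1) was compared between genotypes with limma 3.58.1 (R 4.3.3, trend) for genes with a mean of at least 10, which understates changes of low genes. Benjamini-Hochberg adjusted p under 0.1, the threshold of the study, counted as a change. TE used genes with at least 10 in all 12 libraries, paired by clone number, since both libraries come from the same clone (deviations from genotype means correlated at 0.519 on average, from 0.218 to 0.681). The Babel test of the study was not run. Recovered reads were also tested with edgeR 4.0.16 and DESeq2 1.42.0. On simulated data, limma recovered 95% of 200 genes changed by 1.5 on the log2 scale among 11350 genes for mRNA, 95% among 9570 for RPF and 58.5% among 9210 for TE.

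Lengths and positions came from GENCODE (GRCm38), which matched 89.1% of mRNA and 97.1% of RPF genes. Named were all members; list genes that passed or had 0 mRNA reads; the 2 highest per kb of each list; and the 2 genes most like each tested member. *Rag2*, *Dntt*, *Cd4* and *Cd8a* are named as defining markers, *Id2* to state an order, and 1 further marker is not reported here. The members and lists were chosen with earlier results of these data known. Alternatives were pseudocounts, filters, scaling, library weights, chromosome medians removed and each clone left out.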

Additional observations from a re-analysis of the deposited data

How the results depend on the processing

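With 3 clones per genotype, whether *Cd79b* passed was decided by the tool and by single clones. The number of members called, 0 as reported, was 1 for mRNA and 1 for RPF with DESeq2. With estimated library weights it was 2 for mRNA and 1 for RPF. Leaving out 1 clone gave from 0 to 1 for both. For the other B-lineage genes, the mRNA count of 5 was 10 with DESeq2, 15 with weights and from 1 to 8 with 1 clone left out. The RPF count of 7 was 4 with chromosome medians removed and from 2 to 9 with 1 clone left out. The cause was not tested. Differences near 0 changed sign: *Tcf3* mRNA was 0.038 with chromosome medians removed and from -0.10 to 0.039 with 1 clone left out. TE of *Cd79b* was -0.0092 with a pseudocount of 5, -0.093 with the DESeq2 interaction and from -0.10 to 0.16 with 1 clone left out, and TE of *Cd79a* was from -0.13 to 0.038. Without pairing the libraries by clone (no replicate block), 0 members were called in TE and *Tcf3* kept a difference of 0.48 (adjusted p = 1.0, limma). R98S and WT clones have different numbers, so no block across genotypes was possible. Of 484 recomputed values of 33 single-gene differences, 397 kept their direction and side of the threshold, 57 lost the call, 20 gained it and 10 changed sign. Over all genes, the mRNA calls, 787 as reported, were 1283 with DESeq2 (11.3%) and 2959 with weights (26.1%). With 1 clone left out they were from 315 to 1113. The RPF calls, 743, were 1087 with DESeq2 (11.4%), 1799 with weights (18.8%) and from 229 to 1148 with 1 clone left out. Genes with under 3 reads in a library cannot be told from absent.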

Other observations

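*Ikzf1*, which encodes the lymphoid factor Ikaros, was chosen after its values were seen. R98S clones 11, 13 and 35 had 10.3, 1.64 and 6.88 normalized counts of its mRNA, and WT clones 28, 29 and 36 had 18.8, 61.0 and 18.8. The genotypes did not overlap, but the share of all genes separated in this direction is not given here. The R98S mean of 6.28 lay under the filter of 10, so *Ikzf1* was tested only through its WT values (mean 32.9). In WT clone 28, 1 read was worth 2.69 normalized counts, so its value rests on few reads. The log2 difference was -2.23 (SE 0.70), with an adjusted p of 0.124 in limma, above the threshold. DESeq2, edgeR, the fit with estimated library weights and the fit without WT clone 28 called it, and the other 10 settings did not. Its RPF was between 0.838 and 1.68 in R98S and between 6.59 and 12.5 in WT, from 1 to 12 reads in a library.

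The surroundings of the expressed members were also read after the values were known. The 14 genes tested within 200 kb of *Cd79b* had a median mRNA difference of 0.17 in R98S versus WT on the log2 scale. Around *Tcf3* the median of 17 genes was -0.23, and around *Cd79a* that of 7 genes was -0.11. The median of all genes tested was 0.01. In limma 0 of these neighbours were called around each of the 3 members. The median of all chromosome 11 genes was 0.27 above the mean of the libraries in the mRNA of R98S clone 13 and between -0.07 and -0.03 in the other 5 clones. With chromosome medians removed, the *Cd79b* mRNA difference was 0.90 (adjusted p = 0.173, limma). The part of the chromosome 11 shift in the *Cd79b* values was not tested.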
